A study of Mus musculus with 2 samples.

Results

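The mouse loci of the insulin receptor (Insr), the receptor of insulin-like growth factors (Igf1r) and their adaptor proteins Irs1 and Irs2 were examined in a ChIP-seq list of regions with more histone H4 signal after histone deacetylase inhibition. A region was a member when it overlapped, by at least 1 bp, a fixed window of build mm9 around one of the genes: chromosome 8, 3110000 to 3320000 for Insr, chromosome 7, 75050000 to 75420000 for Igf1r, chromosome 1, 82190000 to 82330000 for Irs1 and chromosome 8, 10950000 to 11050000 for Irs2. This gave 71 of the 61400 listed regions, with 10 at Insr, 36 at Igf1r, 24 at Irs1 and 1 at Irs2. All 71 lay wholly inside their window. The cells were MC3T3 sc4, a clonal mouse osteoblast line from calvaria, kept in medium with ascorbic acid and beta glycerol phosphate. On day 4 the cells received 20 µM SAHA (vorinostat, a histone deacetylase inhibitor) or its solvent DMSO for 2 h. Each condition had 1 library, made with an antibody labelled Histone H4 that the design text describes as directed against acetylated H4.

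Insr and Igf1r are receptor tyrosine kinases. When insulin or an insulin-like growth factor binds, they phosphorylate Irs1 and Irs2, which hold no enzyme activity themselves and dock the proteins that pass the signal on to Akt and the MAP kinases. In osteoblasts this pathway is known to promote survival, growth and matrix formation. Acetylation of histone H4 is a mark of active promoters, enhancers and gene bodies, and deacetylases remove it.

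The annotation used here is in another build (GRCm38), so no member region was assigned to a promoter, exon or intron, and only gene names, gene order and sequence were taken from it. In that order Igf1r lies between Synm and Pgpep1l, Irs1 between Nyap2 and Rhbdd1, and Irs2 between Myo16 and Col4a1. Insr is the first protein-coding gene of chromosome 8, followed by Arhgef18. A locus window can therefore hold parts of such neighbours. RefSeq promoter sequence (GRCm38.p6) was found for 3 of the 4 genes, and the 250 bases before the start were read. They held 42 CpG dinucleotides at Igf1r, 34 at Irs2 and 28 at Irs1, against a median of 6 over 32851 promoter windows of the same length. The E-box CACGTG, a palindrome that reads the same on both strands, occurred once at Irs1, once at Irs2 and not at Igf1r. It was present in 6.02% of all promoter windows. The E-box itself contains a CpG, and its share among promoters equally rich in CpG was not computed. The stretches around it are shown because the 2 adaptor genes share this element while their loci differed most in the list. Both are on the minus strand and written 5′ to 3′ along the gene, with the E-box in capitals. The Irs1 stretch runs from 155 to 70 bases before the start and the Irs2 stretch from 84 to 1.
Irs1: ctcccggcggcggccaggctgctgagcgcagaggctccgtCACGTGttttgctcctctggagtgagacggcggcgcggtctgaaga
Irs2: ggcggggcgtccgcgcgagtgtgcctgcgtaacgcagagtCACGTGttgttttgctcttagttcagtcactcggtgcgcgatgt
The longest runs the 2 promoters had in common were 2 of 10 bases, GTCACGTGTT, which contains the E-box, and TGTTTTGCTC, which does not. A match of letters is a description and says nothing of binding in these cells.

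The caller kept 123676661 tags of the SAHA library and 76214516 of the DMSO library, so 1 DMSO tag was weighted as 1.62 SAHA tags. The list names regions where SAHA exceeded the local DMSO background at a score of at least 50. A stretch outside the list may be unchanged, higher in DMSO or too thinly covered to pass. SAHA tags per kb are set against the genome average of 66.1. The local DMSO level is the background, in tags at SAHA depth, that gives the listed score for the listed tags. Where this level equalled a whole number of scaled DMSO tags, within the rounding of the score, that number was taken as the region's own count. The count is then given and the ratio of SAHA to DMSO is called exact. Such DMSO counts are inferred, since the list holds none. Where the level equalled a denser 1 kb or 10 kb neighbourhood or the genome average, the ratio is a lower limit ("at least"). Where it matched none of these (14 of the 71 members), the ratio is approximate ("about"). Only 13 of the 71 ratios are exact. Medians, ranges and shares of ratios take all kinds together, so they describe recovered ratios, most of them lower limits. Scores, summit folds and FDR are the authors' own values throughout. The deposited FDR was high everywhere, from 58.26% to 100% over the 71 members, with 13 at 100%, and no lower than 58.23% in the whole list. These 13 had the highest scores of the 71, from 582.96 to 2018.3. They include the longest Igf1r region and the Irs1 regions of highest fold, highest ratio and most tags. Printed intervals are 95% and cover counting error only, since no condition had a second library, and no difference here has a replicate check. For a ratio given as at least, the interval covers the SAHA count alone and takes the DMSO level as fixed. Exact ratios have an interval over both counts, which is wider for the same region. For the longest Insr region the SAHA count alone gave 1.85 to 2.10, against 1.74 to 2.25 with both.

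The loci differed mainly in how much of their window was listed. Irs1 carried 17.1 regions per 100 kb, Igf1r 9.73, Insr 4.76 and Irs2 1.00. Listed regions covered 46.0% of the 140 kb Irs1 window, 23.8% of the 370 kb Igf1r window, 9.16% of the 210 kb Insr window and 5.06% of the 100 kb Irs2 window. The order was thus the same by number and by length, but among regions with a fold of at least 5 Igf1r was more covered than Irs1 (8.78% against 7.00%). Within the listed regions the signal varied much less. It was 207 SAHA tags per kb at Insr (Poisson interval 201 to 214), 214 at Igf1r (211 to 217), 259 at Irs1 (255 to 263) and 275 at Irs2 (261 to 290). The intervals of Insr and Igf1r overlapped, as did those of Irs1 and Irs2, while both adaptor loci lay above both receptor loci. These densities were 3.13 to 4.16 times the genome average. Regions were listed for an excess of SAHA, so a density above that average is largely built in. Pooled over the whole list, the density was 213. This value lay inside the intervals of Insr and Igf1r and below those of Irs1 and Irs2. The density at Irs1 rests in part on 1 region described below, without which it was 213 (210 to 217), as in the whole list. Its interval then overlapped those of both receptor loci. The density at Irs2 is that of its only region.

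**Figure D1:**
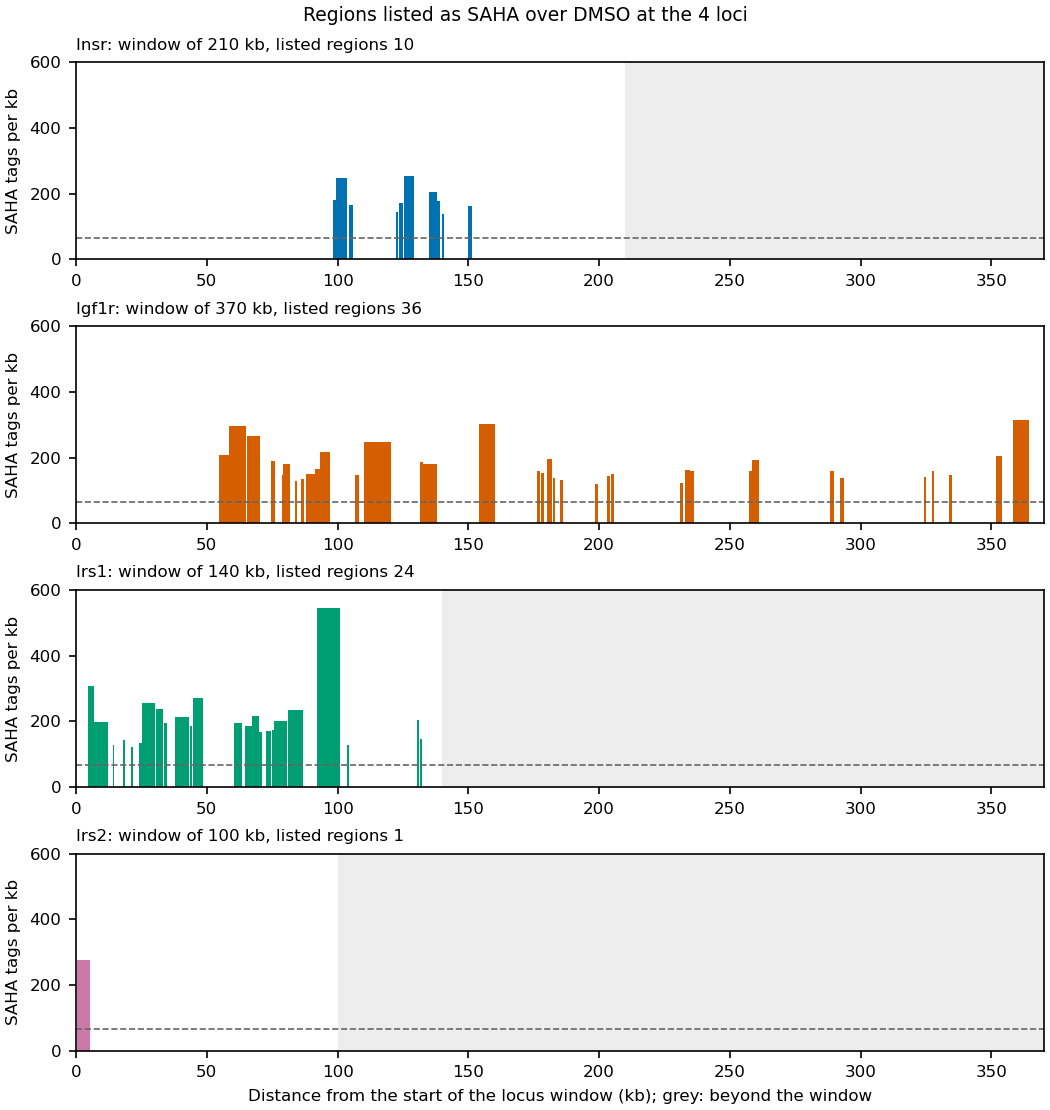
SAHA tags per kb (vertical axis) of each listed region, drawn at its true width by distance in kb from the start of the locus window (horizontal axis), with the genome average of 66.1 dashed. Igf1r regions spread over 309.6 kb, Irs1 regions cover most of the left part of their window, Insr regions lie in the middle of the window, and the Irs2 region starts 0.267 kb inside the left edge.

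At the insulin receptor gene the 10 regions lay within 53.0 kb in the middle of the window, leaving 98.4 kb before and 58.5 kb after them without a listed region. They formed 2 groups when joined across gaps of up to 10 kb, 1 of 3 regions over 7.59 kb and 1 of 7 regions over 29.1 kb. Their first region is also the first listed region of chromosome 8. All 10 had a score of at least 100, none was longer than 5 kb, and the summit folds were narrow in range, from 3.19 to 5.25.

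The longest Insr region, 3999 bp at chromosome 8, 3209436 to 3213434, held 990 SAHA tags against 309 DMSO tags, or 501 after scaling. SAHA was thus 1.97 times DMSO (exact binomial interval 1.74 to 2.25). A second region with a DMSO count of its own, 3244966 to 3248185, held 659 SAHA and 218 DMSO tags, a ratio of 1.86 (1.60 to 2.18). These 2 ratios cannot be told apart within counting error. The region with most tags, 3235392 to 3239360, had 1011 SAHA tags but a lower recovered ratio, at least 1.43 (Poisson interval 1.34 to 1.52). Its DMSO level, at most 708, was the highest recovered at the locus, at 2.70 times the genome average. Being a lower limit, this ratio does not show that the region itself rose less. The highest summit fold, 5.25, and the highest ratio, at least 2.21 (1.84 to 2.63), were both found in a short region of 864 bp, 3232332 to 3233195, where 126 SAHA tags stood over a DMSO level equal to the genome average. Across the locus the median ratio was 1.92, with a range from 1.43 to 2.21.

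At the Igf1r locus the regions spread over 309.6 kb in 10 groups, separated by up to 30.7 kb. The first group held the most regions and tags. Its 13 regions spanned 65.7 kb, were 64.5% covered and held 9504 of the 18844 SAHA tags of the locus (50.4%) in 17.8% of the window. Of the later 9 groups, 7 stayed between 136.7 and 182.2 SAHA tags per kb, and the other 2 reached 300.8 and 284.6.

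The first 3 Igf1r regions followed each other with gaps of 5 and 233 bp, over 15.7 kb in all. The first, 75104731 to 75108434 on chromosome 7, held 766 SAHA tags, with the highest fold of the locus (6.17) and a ratio of at least 2.53 (2.36 to 2.72). The next, 75108440 to 75115100, held 1961 tags at a ratio of about 1.55. The third, 75115334 to 75120396, held 1349 SAHA tags against 686 DMSO tags, a ratio of 1.21 (exact binomial interval 1.10 to 1.33), the lowest recovered among the 71 members. The ratio to DMSO was thus lower in each following region of this stretch, at DMSO levels of 1.23, 2.88 and 3.32 times the average.

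The highest ratio at Igf1r, at least 2.75 (2.44 to 3.08), belonged to 75124658 to 75126230, 1573 bp with 300 SAHA tags over a DMSO level of 1.05 times the genome average. The longest region of all 71, 10329 bp at 75160088 to 75170416, held 2553 SAHA tags (Poisson interval 2455 to 2654). It had a score of 2018.3, a summit fold of 5.55 and a ratio of about 1.95. In the whole list 98.8% of regions were shorter, a rank that follows in part from picking the longest of 71. By contrast 75203960 to 75210356 held 1924 SAHA and 850 DMSO tags, a ratio of 1.39 (1.29 to 1.51). The last region, 75408103 to 75414360, was similar, with 1965 SAHA tags and a ratio of about 1.39. Long Igf1r regions were thus unequal in their recovered ratio to DMSO. Over the 36 regions the median ratio was 1.77 (range 1.21 to 2.75) and the median summit fold 3.73 (range 2.11 to 6.17).

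Irs1 had the highest share of its window listed. Its 24 regions formed 3 groups, of 12 regions over 44.0 kb (67.9% covered), 10 regions over 43.7 kb (74.5% covered) and 2 regions over 2.12 kb. The median gap between neighbours was 365 bp, against 870 bp at Insr and 2068 bp at Igf1r, and joining across 1 kb reduced the 24 regions to 12.

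The highest recovered ratio and the highest fold of all 71 members lay side by side at the start of the Irs1 window, 81 bp apart. At chromosome 1, 82194415 to 82196920, 767 SAHA tags stood against 166 DMSO tags, a ratio of 2.85 (exact binomial interval 2.40 to 3.39). The neighbouring region, 82197002 to 82202296, held 1055 SAHA tags with a summit fold of 7.56 and a ratio of about 2.34. In 98.3% of the whole list the fold was lower, a rank that follows in part from picking the highest of 71. The middle of the locus was more moderate. A region at 82227725 to 82233241 held 1182 SAHA and 429 DMSO tags, a ratio of 1.698 (1.519 to 1.901). Another at 82270883 to 82276840 held 1400 and 441, a ratio of 1.96 (1.76 to 2.18).

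The region with most tags lay at 82282019 to 82290781. It was 8763 bp long and held 4786 SAHA tags (Poisson interval 4651 to 4924), or 546 per kb. None of the 4699 listed regions of chromosome 1 was denser, and 10 in the whole list were. This place in the ranking was noted after the values were seen. Its DMSO level, at most 3525 tags or 6.08 times the genome average, was likewise the highest recovered on chromosome 1. The ratio was at least 1.36 (1.32 to 1.397), a lower limit that does not show how high it was. The summit fold was 4.25. This region alone held 28.7% of the SAHA tags of the locus in 13.6% of its listed length. The 2 last Irs1 regions were short, with few tags and higher recovered ratios. At 82320320 to 82321276, 195 SAHA tags gave a ratio of at least 2.56 (2.22 to 2.95), and at 82321391 to 82322434, 152 tags gave at least 2.20 (1.87 to 2.58). The median ratio of the locus was 1.68 (range 1.35 to 2.85).

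Irs2, the other adaptor, had 1 listed region. It lay at chromosome 8, 10950267 to 10955329, 267 bp inside the left edge of the window, and held 1393 SAHA tags (Poisson interval 1321 to 1468) over 5063 bp. Its summit fold was 4.58, its score 1180.2 and its ratio at least 1.99 (1.89 to 2.10), over a DMSO level of at most 698 tags or 2.09 times the genome average. Its deposited FDR was 100%, as in the other members of highest score. It had more tags and a higher density than 22 of the 24 Irs1 regions, and a higher recovered ratio than 20 of them. Only 4 of the 24 Irs1 ratios are exact, and the Irs2 ratio is a lower limit. The order of the true ratios is therefore not known. No other region was listed in the remaining 94.7 kb of the window. The next one on chromosome 8 began at 11186925, after 231.6 kb, a stretch longer than 98.0% of the 3282 gaps between listed regions of that chromosome. Whether the Irs2 chromatin was unchanged or higher in DMSO there cannot be read from a list of SAHA-high regions.

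**Figure D2:**
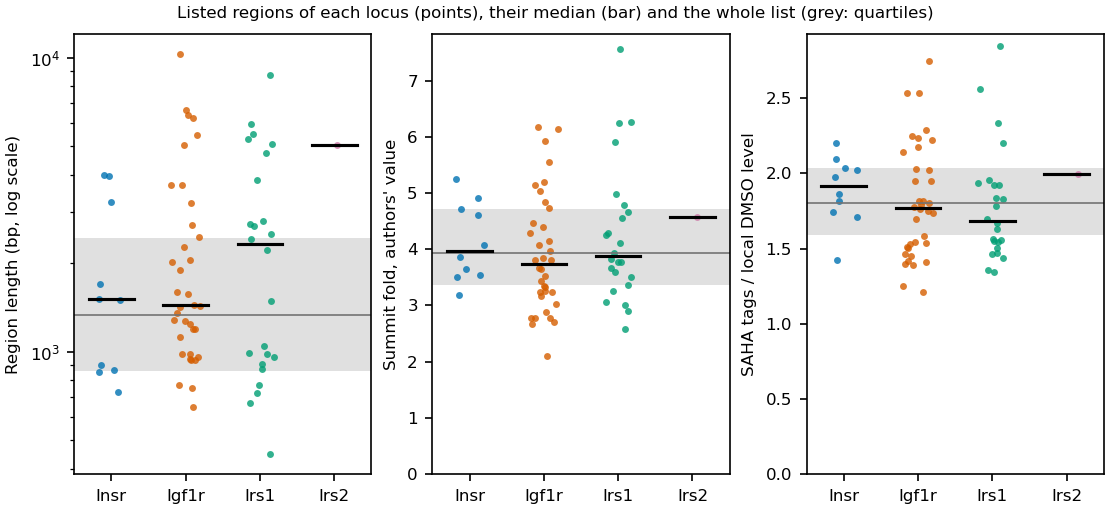
Length (left, bp, log axis), summit fold (middle) and SAHA tags over the local DMSO level (right) of each listed region at the 4 loci, 1 point per region, with the median of each locus as a black bar. The grey band and line are the quartiles and median of the whole list, and the medians of the loci with more than 1 region lie inside the band in every panel.

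As single regions, most members were ordinary for this list. The median summit fold of the 71 was 3.83 against 3.93 in the whole list, and the median ratio 1.79 against 1.80. A fold of at least 5 was found in 12 members (16.9%), against 19.0% of all listed regions. By locus these were 7 at Igf1r, 4 at Irs1, 1 at Insr and 0 at Irs2. A ratio of at least 2 was found in 19 members (26.8%), against 28.0% of the 61106 regions with a recovered level. It was reached by 4 of 10 Insr regions, 11 of 36 Igf1r regions and 4 of 24 Irs1 regions. Both shares were close to the background. A score of at least 100 was reached by 53 members (74.6%), against 62.5% of the list. Regions longer than 5 kb numbered 12 (16.9%), against 7.85% of the list, with 6 at Igf1r, 5 at Irs1 and 1 at Irs2. Neighbouring regions of 1 locus are not independent, so these shares carry no test.

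Length and ratio of the members went with the DMSO level in the same directions as in the whole list. For the 8 members at or below the genome average the medians were 901.5 bp and a ratio of 2.11. For the 13 members at 2 or more times the average they were 5063 bp and 1.43. The whole list gave 821 bp and 1.98, and 3793 bp and 1.41. The score cutoff and the division by the same level build part of this trend in. The median DMSO level was 1.74 times the average at Irs1, 1.47 at Insr and 1.29 at Igf1r, against 1.29 in the list. In the 13 members with a DMSO count of their own, the ratio ran from 1.21 to 2.85 with a median of 1.67, and the exact binomial interval stayed above 1 in all 13. Each had been listed for SAHA exceeding DMSO, so this is no separate evidence.

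**Figure D3:**
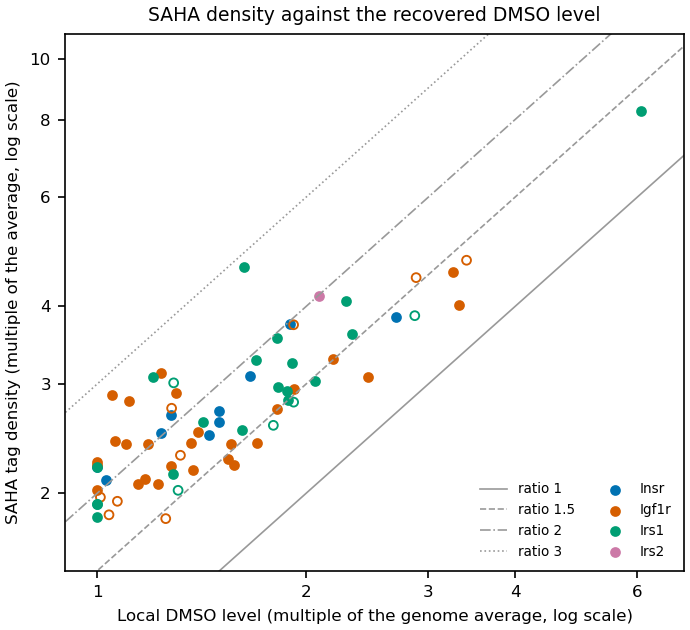
SAHA tag density against the local DMSO level, both as multiples of the genome average on log axes, 1 point per member region, with lines of equal ratio. Open circles are the 14 members whose level matched no background. The Irs1 region at 6.08 times the average in DMSO stands to the far right, and 38 of the 71 members lie between the lines of ratio 1.5 and 2.

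Equal-sized windows along the same chromosome place each locus. At Irs1, 97.9% of 1368 windows of 140 kb on chromosome 1 held fewer regions than its 24, and 99.1% had less length covered than its 46.0%. Only 26 windows held more regions and 12 had more covered. At Igf1r, 93.0% of 402 windows of 370 kb on chromosome 7 held fewer than 36 regions, and 95.8% were less covered. At Insr, 78.0% of 609 windows of 210 kb on chromosome 8 held fewer than 10 regions. At Irs2, 59.2% of 1278 windows of 100 kb held none and so fewer than its 1, and 33.9% held more.

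Between 46.5% and 59.2% of these windows held no listed region, which lifts every rank. Among windows with at least 1 region, the share with fewer regions was 95.2% for Irs1, 87.0% for Igf1r, 54.9% for Insr and 0% for Irs2. Irs1 and Igf1r thus stood high in either set, Insr near the middle of the windows that held any region, and Irs2 at the lowest count such a window can have. By SAHA tags per kb of listed sequence the order was different. The Irs1 and Irs2 windows were denser than 95.1% and 92.9% of the windows with a region, and Igf1r and Insr than 75.4% and 66.7%. Without its densest region Irs1 was denser than 75.7%, about as Igf1r. These ranks are descriptions of 1 list and have no p-value.

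**Figure D4:**
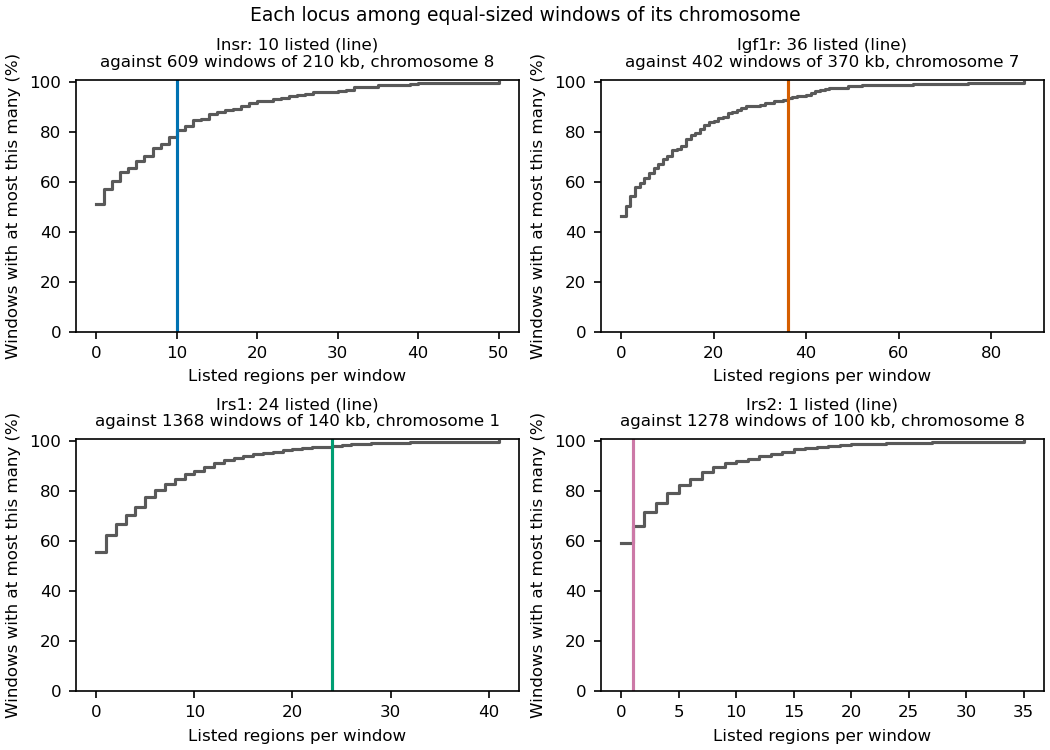
Share of equal-sized windows on the same chromosome (vertical axis, percent) that hold at most the number of listed regions on the horizontal axis, 1 panel per locus, with the locus itself as a coloured line. The line stands at 24 regions for Irs1 and 36 for Igf1r, where the curve is above 90%, and at 1 region for Irs2.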

How the data were processed

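Chromatin of MC3T3 sc4 cells given SAHA or DMSO was immunoprecipitated and sequenced, 1 library per condition. The submitters' processing notes name build mm9 and the tools MACS 1.4.0rc2, SAMtools, BWA 0.5.9 and CASAVA 1.7.0. Per the file headers, MACS compared the SAHA reads with the DMSO reads at a p cutoff of 1e-05, kept at most 3 duplicate tags per position and scaled the smaller library to the larger. After that limit 97.4% of SAHA tags and 65.6% of DMSO tags remained. The deposited list gives whole counts of SAHA tags per region and no DMSO counts. The deposited score is the −log10 of the Poisson p-value multiplied by 10. The deposited fold enrichment is a ratio at the summit to the local DMSO background. The deposited FDR is a percentage.

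Computed here (pandas 2.3.3, scipy 1.17.1, numpy 2.4.6, Python 3.11.15) were counts, covered length and densities per window, and the local DMSO level, which is the Poisson mean whose upper tail beyond the tag count of the region yields its score. It was set for the 61106 regions with a score under 3000, all 71 members among them, and matched a background the caller could have used within the rounding of the score (0.005) in 75.8%, against 1.82% by chance. Equal-sized windows were laid end to end outward from each locus window over the span of the listed regions of its chromosome. Named regions are those of highest fold, most tags, highest ratio and greatest length at each locus, plus, chosen after their values were seen, their direct neighbours and others with a DMSO count of their own or at a locus end. The loci and windows were chosen with earlier results of these data known. With 1 library per condition no test was made. Other genes of the pathway and gene parts were not analysed here, since no mm9 annotation was used.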

Additional observations from a re-analysis of the deposited data

How the results depend on the processing

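Of 68 alternative values, 41 stayed within the interval of the value given (or within 1.5 times of it, for counts and covered length) and 27 did not. Those not listed below stayed. For median ratios at loci with several regions, this interval came from the spread of the member regions. For window shares it was a binomial interval over the windows. Both treat neighbours as independent, which they are not, so the split into stayed and moved is only a rough guide there. Region number and covered share ranked the loci Irs1, Igf1r, Insr, Irs2 in the list as deposited. At a fold of at least 5 the regions per 100 kb were 2.86 at Irs1, 1.89 at Igf1r, 0.476 at Insr and 0 at Irs2, and the covered shares 7.00%, 8.78%, 0.411% and 0%, so Igf1r then exceeded Irs1 in coverage. Joining across 1 kb gave 8.57, 6.22 and 2.38 regions per 100 kb at Irs1, Igf1r and Insr. At a score of at least 100 the density was 268.9 SAHA tags per kb at Irs1 and 224.5 at Igf1r, and the share of windows with fewer regions 86.5% for Insr and 64.0% for Irs2. Without depth scaling the median ratios, larger by the factor of 1.62, were 3.11 at Insr, 2.87 at Igf1r, 2.73 at Irs1 and 3.24 at Irs2. Among windows with a region, the share with fewer was 54.9% for Insr, 87.0% for Igf1r, 95.2% for Irs1 and 0% for Irs2. By covered length the share was 95.8% for Igf1r, 99.1% for Irs1 and 73.5% for Irs2. Over windows of all autosomes, added after the data were seen, it was 56.5% for Irs2. Stricter limits and joining leave fewer regions by construction, and for the other shifts the cause was not tested. The unequal loss of duplicates cannot be told apart from the treatment, and no alternative replaces a replicate.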

Other observations

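The loci also differed in what lay around them. The first Igf1r region was preceded by 153.4 kb without a listed region, and the last was followed by 47.3 kb. After the last Insr region 153.2 kb passed before the next one, at chromosome 8, 3414702 to 3420637, which held 1220 SAHA tags at a summit fold of 3.03. Irs1 had a listed neighbour 5.79 kb before its first region, and the next one after its last region came at 34.4 kb. Windows widened by 50 kb on either side were chosen after the data were seen. In them Irs1 held 16.7 regions per 100 kb, Igf1r 8.085, Insr 3.226 and Irs2 1.5. The values in the original windows were 17.1, 9.73, 4.76 and 1.00. The region that ended the stretch beyond Irs2, 11186925 to 11188982, held 446 SAHA tags at a summit fold of 5.11.

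The GC content of the 250 bases before the start was 77.6% at Igf1r, 72.8% at Irs2 and 72.4% at Irs1, against a median of 52.4% over all promoter windows. CpG counts were higher than in 99.1%, 96.5% and 92.4% of those windows. The longest run shared with the Igf1r promoter was 10 bases for Irs2 and 9 for Irs1.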
